A study of Rattus norvegicus with 24 samples.

Results

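Small leucine-rich proteoglycans (SLRPs) are secreted matrix proteins that bind collagen fibrils, and 8 genes of the family are described here: Dcn, Bgn, Lum, Fmod, Ogn, Prelp, Aspn and Omd. They were taken by target name, without regard to their values, and all 8 were present among 19962 gene targets measured by GeoMx digital spatial profiling, a method that counts probe tags released by light from chosen areas of a tissue section. The tissue was skin around full-thickness wounds of 8 mm in male SD rats in which STZ had induced diabetes at 5 weeks of age, fixed, embedded and taken on day 7. Wounds were splinted or sutured to keep them open. The 3 treatments were Gel, a hydrogel, CuNZ@Gel, a hydrogel whose composition the labels do not give, and Sham, which served as the control and carried the same diabetes and wound. Each treatment had 2 numbered specimens, each specimen 2 regions (named mac1 and mac2) and each region 2 segments, which gave 24 areas and 8 per treatment. The labels do not say that a specimen is 1 animal, which fluorescent signal defined a segment, or what "mac" stands for, and no wound without diabetes was part of the comparison.

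An SLRP has a core protein of leucine-rich repeats that folds into a curved solenoid and carries chondroitin, dermatan or keratan sulfate chains, or none. By binding fibrillar collagen these proteins set fibril diameter and spacing in skin, tendon and cornea, and several of them also bind TGF-beta or cell-surface receptors. Decorin, biglycan and asporin (Dcn, Bgn, Aspn) form class I, lumican, fibromodulin, PRELP and osteomodulin (Lum, Fmod, Prelp, Omd) class II, and osteoglycin (Ogn) belongs to class III. In skin, decorin and lumican are produced by fibroblasts of the dermis, and biglycan is known as a matrix component of healing wounds and as a signal to innate immune receptors when released.

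Values are the deposited scaled signal, and differences are on the log2(signal + 1) scale. A target was taken as above background in an area when its value exceeded that of 99% of 1116 receptor targets for odours and pheromones, and this limit lay between 11.4 and 21.6. Recovered totals were 322151 to 1476499 counts per area in Segment 1 and 86385 to 688507 in Segment 2, and of 12 regions 11 had fewer counts in Segment 2. Treatments were compared over specimen means with limma, with p-values adjusted by Benjamini-Hochberg over 19728 targets and a threshold of 0.05, and a target past it is called higher or lower. Because each treatment had 2 specimens, the SD came largely from the pooled spread of all targets. An exact permutation test of 2 specimens against 2 cannot reach that threshold. Where a specimen was left out, the one that remained of its treatment was assumed to vary like the specimens of the other treatments, so that such a p does not measure the spread within that treatment.

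The members differed in how many areas read them. Bgn and Lum were above background in 24 of 24 areas, Fmod in 19 and Aspn in 15. Prelp was above it in 4 areas, Dcn in 3, and Omd and Ogn in none. Dcn, the gene of decorin, was represented by 1 to 42 counts per area and lay between 2.04 and 18.4, so that the target of a gene known for high expression in dermal fibroblasts stood near the receptor background in all 3 treatments. Lum, the neighbour of Dcn on rat chromosome 7, had 319 to 7216 counts in the same areas. Probe sequences were not used here, and whether a low value reflects little RNA or a probe that reads it poorly was not tested.

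**Figure D1:**
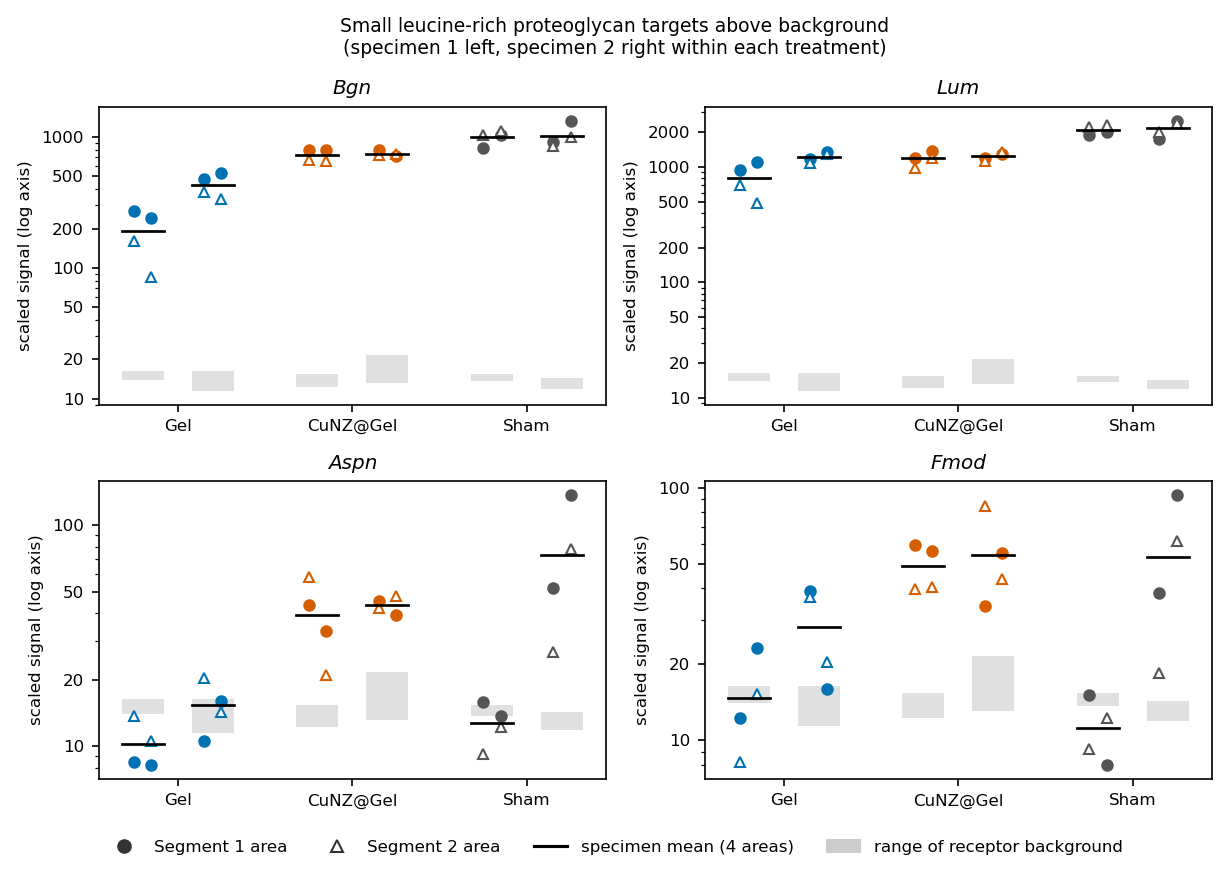
Scaled signal (log axis) of Bgn, Lum, Aspn and Fmod in each of the 24 areas, by treatment and specimen; circles are Segment 1, triangles Segment 2, black lines are specimen means of 4 areas and grey bars span the receptor background of that specimen's areas. Bgn and Lum lie far above background everywhere and lowest in Gel, while Aspn and Fmod differ between Sham specimen 1 and Sham specimen 2.

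Between Gel and Sham, 1 of 8 members was lower (Lum) against 1.80% of all targets tested, and 1 of 8 was higher (Prelp) against 0.618%. Between CuNZ@Gel and Sham, 1 of 8 was lower (Lum) against 0.988% of all targets and 0 of 8 were higher against 0.324%. Between CuNZ@Gel and Gel, 0 of 8 were higher against 0.623% and 1 of 8 was lower (Prelp) against 0.319%. Of the 3 comparisons each pair shares a treatment's specimens, so a low or high value in a shared group enters both. Where areas are set side by side without a test, all 8 Gel areas lay below all 8 Sham areas for Bgn and Lum, as for 0.639% of all targets, and all 8 CuNZ@Gel areas lay below all 8 Sham areas for the same 2 genes, as for 0.750%. All 8 CuNZ@Gel areas lay above all 8 Gel areas for Bgn and Aspn, as for 0.198% of targets.

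Lum encodes lumican, a keratan sulfate proteoglycan in cornea that occurs in skin mainly with few or no such chains and whose loss in mice gives thick, irregular fibrils and fragile skin. The lowest, median and highest of its 8 areas were 485, 1093 and 1336 in Gel, 978, 1204 and 1388 in CuNZ@Gel, and 1735, 2105 and 2528 in Sham. Every area of either gel lay below every Sham area, while the gels overlapped each other. Specimen means were 806 and 1225 in Gel, against 2101 and 2162 in Sham. Lum fell in Gel by 1.13 on the log2 scale (SE 0.18, limma adjusted p = 7.2e-07). In CuNZ@Gel the specimen means were 1190 and 1251, and Lum fell by 0.80 against Sham (SE 0.18, limma adjusted p = 0.0029). The SD used for Lum was 0.177 against 0.274 of its own, so both calls lean on the pooled spread. The difference of CuNZ@Gel against Gel was 0.32 (95% interval -0.03 to 0.68, limma adjusted p = 0.798) and did not pass. The median target above background differed from Sham by -0.147 in Gel and -0.155 in CuNZ@Gel, and after quantile normalization the Lum differences were -0.57 (adjusted p = 0.00066) and -0.40 (adjusted p = 0.0556). The CuNZ@Gel call was also lost on leaving out Sham specimen 1 (adjusted p = 0.154), Sham specimen 2 (0.0872), CuNZ@Gel specimen 1 (0.411) or CuNZ@Gel specimen 2 (0.271), with differences between -0.76 and -0.84, and edgeR on recovered counts passed neither comparison (adjusted p = 0.116 and 0.516).

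Bgn encodes biglycan, which carries chondroitin or dermatan sulfate chains, binds collagen I and TGF-beta, and in soluble form activates the receptors Tlr2 and Tlr4. Its areas lay at 85.0, 306 and 532 in Gel (lowest, median, highest), at 654, 735 and 802 in CuNZ@Gel, and at 827, 1012 and 1339 in Sham. The 3 treatments did not overlap in a single area, in the order Gel, CuNZ@Gel, Sham. Shares of all targets are given above for each pair, and targets with this order of 3 were not counted. Specimen means were 190 and 432 in Gel, 730 and 744 in CuNZ@Gel and 1002 and 1026 in Sham. The 2 Gel specimens differed from each other by more than those of the other treatments, and the SD over specimens (0.53 on the log2 scale) was reduced only to 0.44 in the fit. The Gel difference from Sham was -1.88 (SE 0.44, 95% interval -3.04 to -0.73) and did not pass over all targets (limma adjusted p = 0.193). It passed under 14 of 23 alternatives, among them limma restricted to targets above background (adjusted p = 0.0216), limma without the trend and robust options (0.00109) and edgeR on recovered counts (0.00035). It did not pass under the other 9, which were quantile normalization (-1.46, adjusted p = 0.38), median centring (0.269), a pseudocount of 0.5 (0.24), no filter (0.193), leaving out Sham specimen 1 (0.151) or Sham specimen 2 (0.0861), region mac2 alone (-2.17, adjusted p = 0.377), thinned counts (0.475) and DESeq2 (0.162). The difference was -1.24 without Gel specimen 1 and -2.53 without Gel specimen 2. These fits passed, but with the unlike Gel pair no longer in the spread, which then came from Sham and CuNZ@Gel. The difference of CuNZ@Gel against Sham was -0.45 (95% interval -1.60 to 0.71, adjusted p = 0.807) and that of CuNZ@Gel against Gel 1.43 (0.28 to 2.59, adjusted p = 0.603). Without Gel specimen 1 the difference between the gels was 0.79 and without Gel specimen 2 it was 2.08, again with no spread from Gel.

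**Figure D2:**
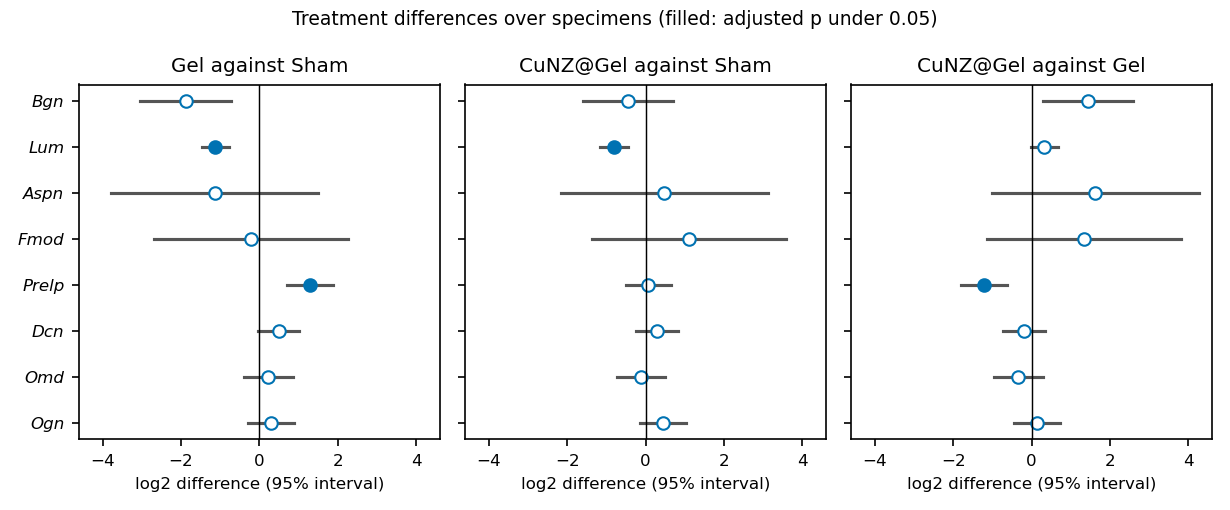
Log2 difference of each member (horizontal axis, points with 95% intervals from limma) for the 3 treatment comparisons over specimen means, n = 2 specimens per treatment; filled points have an adjusted p under the threshold. Lum lies left of 0 in both comparisons with Sham, Prelp right of 0 for Gel against Sham, and the intervals of Aspn and Fmod span more than 4 log2 units.

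Aspn encodes asporin, a class I member without glycosaminoglycan chains that binds collagen and inhibits TGF-beta signalling, and Fmod encodes fibromodulin, a keratan sulfate proteoglycan of tendon and dermis that competes with lumican for collagen. Aspn areas lay at 8.18, 12.1 and 20.4 in Gel (lowest, median, highest), at 21.0, 43.0 and 58.3 in CuNZ@Gel and at 9.20, 21.2 and 137 in Sham. Fmod areas lay at 8.18, 18.2 and 38.9 in Gel, at 34.0, 49.4 and 84.5 in CuNZ@Gel and at 7.94, 16.8 and 93.9 in Sham. Aspn was above background in 2 of 8 Gel areas, 8 of 8 CuNZ@Gel areas and 5 of 8 Sham areas, and Fmod in 6, 8 and 5 of 8. The Sham group was not uniform for either gene. Sham specimen 1 averaged 12.8 for Aspn and 11.1 for Fmod, and Sham specimen 2 averaged 73.5 and 53.0, while the CuNZ@Gel specimens averaged 39.0 and 43.6 for Aspn and 49.0 and 54.3 for Fmod. Gel specimens averaged 10.2 and 15.3 for Aspn and 14.7 and 28.0 for Fmod.

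Neither gene passed a treatment comparison. CuNZ@Gel against Gel gave 1.62 for Aspn (95% interval -1.01 to 4.26, limma adjusted p = 0.921) and 1.34 for Fmod (-1.14 to 3.81, limma adjusted p = 0.946), with an SD of 0.94 and 0.88 of their own that came mainly from the Sham specimens. With either Sham specimen left out these differences had the same size, which was fixed in advance because no Sham value enters them. The SD then came from the 4 gel specimens and largely from the pooled spread of all targets, so no p is given. Against Sham the size turned on which Sham specimen was kept, and no p is given for a Sham of 1 specimen because the wide Sham spread is then left out. Without Sham specimen 1, Gel against Sham was -2.25 for Aspn and -1.20 for Fmod, and CuNZ@Gel against Sham was -0.63 and 0.14. Without Sham specimen 2, Gel against Sham was -0.03 for Aspn and 0.76 for Fmod, and CuNZ@Gel against Sham was 1.59 and 2.10.

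The bases directly before both annotated genes are shown because Aspn and Fmod shared a pattern over areas that their chromosomal positions do not share. Sequences are from RefSeq (rat build GRCr8), 5′ to 3′ on the strand of the gene, with CG dinucleotides in capitals. The Aspn stretch is chr17:15310568-15310719 on the minus strand and the Fmod stretch chr13:48045317-48045566 on the plus strand.
Aspn: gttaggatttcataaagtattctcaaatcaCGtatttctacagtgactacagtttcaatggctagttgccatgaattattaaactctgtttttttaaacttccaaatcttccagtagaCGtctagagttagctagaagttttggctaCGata
Fmod: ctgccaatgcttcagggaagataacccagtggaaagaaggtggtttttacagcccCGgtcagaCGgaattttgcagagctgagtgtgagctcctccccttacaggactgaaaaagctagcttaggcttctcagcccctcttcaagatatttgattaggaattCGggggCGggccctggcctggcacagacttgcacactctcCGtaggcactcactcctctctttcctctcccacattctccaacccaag
The 152 Aspn bases were 33.6% G or C with 3 CG, against a median of 50% and 3 CG over 33469 promoter windows of that length. Those windows were the first 152 of the 250 bases before each annotated start, so they left out the bases nearest to it. The 250 Fmod bases were 52.8% G or C with 5 CG, against 51.2% and 5 CG. The motif letters TATAAA of the core promoter element were on neither strand of either stretch. The same was true of the AP-1 motif TGANTCA. The Smad motif, spelled CAGACA, and the E-box, spelled CANNTG, were not there either. Windows of the Aspn length held them in 7.8%, 3.9%, 11.3% and 48.7% of cases and windows of the Fmod length in 12.9%, 6.3%, 17.2% and 65.5%. In the gene order of that annotation Aspn stands beside Omd and Ogn on chromosome 17, and Fmod beside Prelp on chromosome 13.

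Prelp encodes a basement membrane and connective tissue SLRP whose basic N-terminus binds heparan sulfate. Its areas lay at 8.18, 10.8 and 25.9 in Gel (lowest, median, highest), at 1.36, 5.44 and 9.20 in CuNZ@Gel and at 1.44, 4.50 and 12.6 in Sham. Above background were 3 of 8 Gel areas, all of specimen 1, 0 of 8 CuNZ@Gel areas and 1 of 8 Sham areas, with 1 to 36 counts per area. Specimen means were 17.5 and 8.71 in Gel, 5.48 and 4.80 in CuNZ@Gel, and 3.80 and 6.61 in Sham, so that specimens did not overlap between Gel and the others although areas did. The same was true of Dcn, which passed no comparison. How many of all targets had such an order of specimens was not counted. Prelp rose in Gel by 1.28 against Sham (SE 0.29, limma adjusted p = 0.00236), and was lower in CuNZ@Gel than in Gel by -1.21 (SE 0.29, limma adjusted p = 0.00996). The SD used for Prelp was 0.294 against 0.432 of its own, so both calls lean on the pooled spread. Both comparisons rest on the same Gel specimens. Neither passed within a segment. Gel against Sham gave 0.98 in Segment 1 (limma adjusted p = 0.261) and 1.58 in Segment 2 (limma adjusted p = 0.0675). CuNZ@Gel against Gel gave -1.13 in Segment 1 (limma adjusted p = 0.267) and -1.29 in Segment 2 (limma adjusted p = 0.416). Among other alternatives, the rise lost its call without Gel specimen 1 (0.84) or Sham specimen 1 (1.01). It was also lost with edgeR (adjusted p = 0.0967), DESeq2 (0.569) and counts thinned to the shallowest area (0.316). The difference between the gels was lost, among other alternatives, without Gel specimen 1 (-0.77), CuNZ@Gel specimen 1 (-1.31) or CuNZ@Gel specimen 2 (-1.10).

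**Figure D3:**
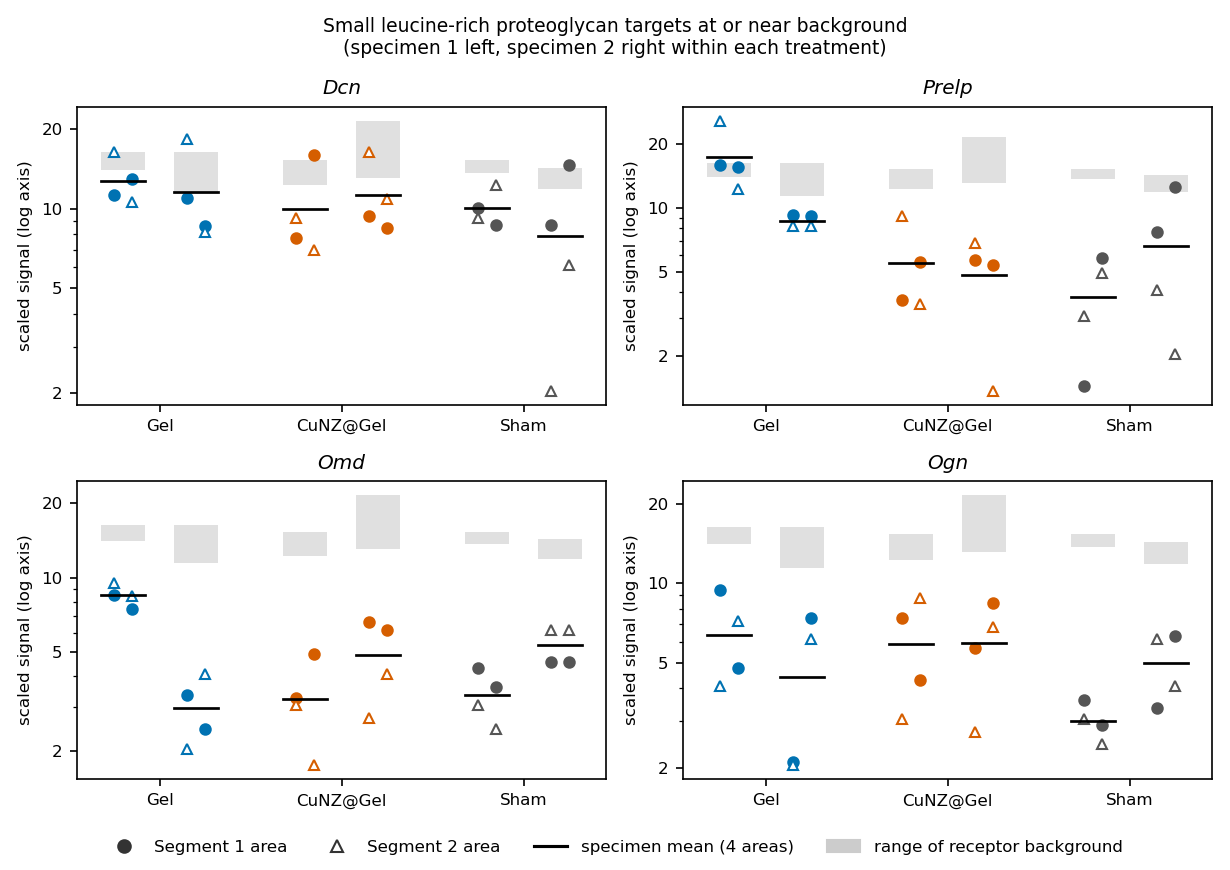
Scaled signal (log axis) of Dcn, Prelp, Omd and Ogn in each area, drawn as circles (Segment 1) and triangles (Segment 2) with specimen means as black lines; grey bars span the receptor background of that specimen's areas. Omd and Ogn lie below the bars everywhere, Dcn near them, and Prelp reaches them mainly in Gel specimen 1.

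Dcn, Omd and Ogn passed no treatment comparison. Dcn, whose product is the archetypal collagen-binding and TGF-beta-binding SLRP, had specimen means of 12.8 and 11.5 in Gel, 9.98 and 11.3 in CuNZ@Gel, and 10.1 and 7.89 in Sham. Its difference was 0.49 for Gel against Sham (95% interval -0.04 to 1.02, limma adjusted p = 0.477), 0.30 for CuNZ@Gel against Sham (adjusted p = 0.756) and -0.19 for CuNZ@Gel against Gel (adjusted p = 0.989). Ogn, a class III member with roles in bone and heart matrix, and Omd, a keratan sulfate proteoglycan of mineralised tissue, stood at medians of 3.49 to 6.24 and of 3.68 to 5.79 over the treatments. The 95% intervals were -0.40 to 0.84 for Omd and -0.30 to 0.87 for Ogn between Gel and Sham.

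Within segments, Bgn and Lum were called lower in Gel than in Sham in Segment 1 (2 of 8 members against 1.33% of targets) and in Segment 2 (2 of 8 against 1.32%). Bgn in Segment 1 was 274.5 and 241.9 in Gel specimen 1 and 480.0 and 531.7 in Gel specimen 2, against 827 and 1041 in Sham specimen 1 and 925 and 1339 in Sham specimen 2 (difference -1.49, SE 0.27, limma adjusted p = 0.0238). In Segment 2 it was 159 and 85.0 in Gel specimen 1 and 378 and 337 in Gel specimen 2, against 1030 and 1109 in Sham specimen 1 and 848 and 993 in Sham specimen 2 (difference -2.27, SE 0.23, limma adjusted p = 6.9e-15). The Gel values were the lowest in both segments, with no overlap. How many of all targets were kept apart in this way within a segment was not counted. Lum fell by 0.83 in Segment 1 (SE 0.15, limma adjusted p = 0.00014) and by 1.42 in Segment 2 (SE 0.19, limma adjusted p = 5.6e-11). In Segment 2 the fit took the spread wholly from all targets, so that the SD used was 0.23 for Bgn and 0.19 for Lum against 0.67 and 0.43 of their own.

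CuNZ@Gel was lower than Sham for Lum in Segment 1 (1 of 8 members against 0.674%, difference -0.67, limma adjusted p = 0.00838) and in Segment 2 (1 of 8 against 0.471%, difference -0.94, limma adjusted p = 0.00051). Fmod was higher in CuNZ@Gel than in Sham in Segment 2 (1 of 8 against 0.117%, difference 1.33, SE 0.33, limma adjusted p = 0.014), where the SD used was 0.33 against 0.85 of its own and the 2 Sham specimens stood apart as in both segments together. Against Gel, CuNZ@Gel had 0 of 8 members called in Segment 1 (0.760% of targets) and 3 of 8 higher in Segment 2 (0.466% of targets). These were Bgn (1.77, SE 0.23, adjusted p = 2.3e-09), Fmod (1.43, SE 0.33, adjusted p = 0.00275) and Aspn (1.41, SE 0.33, adjusted p = 0.00616), again with a pooled SD well under their own. A call in 1 segment and not in the other does not show that the segments differ, which the next comparison tests.

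Segment 2 was compared with Segment 1 with specimen as a block. Over the 3 treatments 1 of 8 members, Bgn, was called lower in Segment 2, as were 2.14% of all targets (difference -0.34, SE 0.07, limma adjusted p = 0.00303), and it was the lower of the pair in 9 of 12 regions. The median target above background differed by -0.197 in Segment 2, and the Bgn call was lost after quantile normalization (-0.11, adjusted p = 0.37), after median centring (-0.20, adjusted p = 0.219), with thinned counts (-0.26, adjusted p = 0.0501) and without Gel specimen 1 (-0.23, adjusted p = 0.103), Sham specimen 2 (-0.26, adjusted p = 0.104), CuNZ@Gel specimen 1 (-0.30, adjusted p = 0.277) or CuNZ@Gel specimen 2 (-0.38, adjusted p = 0.117). Within Gel, Bgn was lower in Segment 2 by -0.82 (SE 0.12, limma adjusted p = 1e-04), 1 of 8 members against 0.380% of targets. The SD used was 0.117 against 0.241 of its own. The widest drop, from 241.9 to 85.0, was in region mac2 of Gel specimen 1. There the Segment 2 area had more counts (688507) than the Segment 1 area (481134). It also had the highest negative probe of all areas (5.42) and the lowest Bgn and Lum values. Within CuNZ@Gel (-0.15) and Sham (-0.04) 0 of 8 members passed, against 0.608% and 0.167% of targets. The treatment by segment interaction was not past the threshold for Bgn (F = 13.0, limma adjusted p = 0.0954) or any other of the 8 members, with 0.0507% of targets called. For Bgn it passed under 4 of 16 alternatives, which were quantile normalization (adjusted p = 0.00496), region mac2 alone (0.00396), thinned counts (0.0282) and leaving out Gel specimen 2 (0.00421). For Lum it passed under 1 of 16, without Gel specimen 2 (0.00205). For Lum the segment difference was -0.45 in Gel (adjusted p = 0.265), -0.14 in CuNZ@Gel and 0.14 in Sham.

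**Figure D4:**
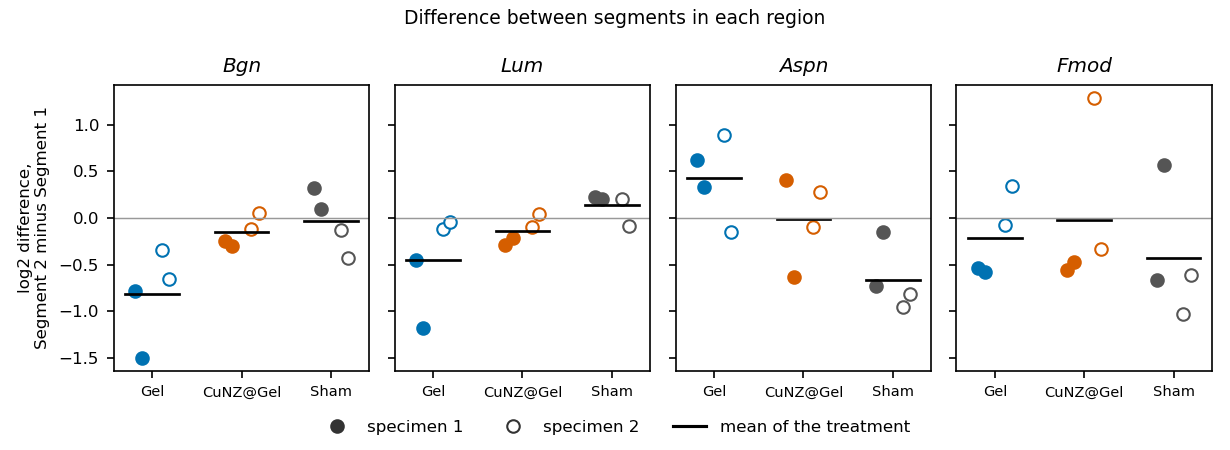
Log2 difference of Segment 2 minus Segment 1 within each of the 12 regions for Bgn, Lum, Aspn and Fmod, by treatment; filled points are specimen 1, open points specimen 2, and black lines are treatment means. Bgn lies below 0 in all 4 Gel regions (mean -0.82), and near 0 on average in CuNZ@Gel and Sham.

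The 2 regions of a specimen gave like values for the well-read genes. Between region mac2 and region mac1 in the same specimen and segment, the median absolute log2 difference was 0.16 for Bgn and 0.23 for Lum, against 0.39 for Aspn and 0.84 for Fmod. Lum was the higher in mac2 in 11 of 12 such pairs and Bgn in 7 of 12. These pairs were not tested.

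Over the 24 areas, which share specimens, depth and treatment, the likeness of targets was described by Pearson's r of log2 values. Bgn and Lum had r = 0.87 and Aspn and Fmod r = 0.79, while Prelp ran opposite to Bgn (r = -0.63) and Lum (r = -0.55). Prelp was above background in only 4 areas, 3 of them in Gel specimen 1, which had the lowest specimen means of Bgn and Lum. Among 4302 targets above background in at least 12 areas, the closest to Bgn were Spon1 (0.98), Acta2, the smooth muscle actin gene (0.97), and Col1a2, a collagen I chain (0.95). The closest to Lum were Fstl1 (0.94), Mfap2 (0.92) and Serpinf1 (0.91). Aspn ran closest to Col11a1, a chain of collagen XI (0.83), followed by Fmod and Fgf7 (0.79 each). Fmod was followed, after Aspn, by Tmem45a (0.78) and Chpf, a chondroitin polymerising factor (0.73). Prelp ran closest to Prg4, the lubricin gene (0.73), Trf (0.72) and Mt2, a metallothionein (0.70).

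Of 20 collagens and fibril partners that SLRPs bind, 6 were lower in Gel than in Sham (1.80% of all targets) and 0 higher (0.618%). The median difference was -0.72 over the 20, against 0.062 over all targets tested, and -1.55 over the 14 above background, against -0.147 over all targets above background. Col12a1, a fibril-associated collagen, averaged 248 in Gel against 1682 in Sham (-3.02, limma adjusted p = 1.4e-32), Col5a1, a chain that nucleates fibrils, 375 against 1125 (-1.66, adjusted p = 2.3e-06), and Fn1, fibronectin, 440 against 1233 (-1.56, adjusted p = 3.2e-12). Col1a1 and Col3a1, the main fibrillar chains of dermis, had differences of -1.83 and -1.54 and did not pass (adjusted p = 0.259 and 0.479). Against Sham, CuNZ@Gel had 3 of 20 lower (Eln, Col14a1, Col12a1; 0.988% of all targets) and 0 higher (0.324%), with a median of -0.33 over the 20 and -0.39 over the 14. Col14a1 averaged 18.8 in CuNZ@Gel against 97.4 in Sham (-2.30, adjusted p = 0.0156). CuNZ@Gel had 4 of 20 higher than Gel (Col12a1, Fn1, Col5a1, Lox; 0.623% of all targets) and 0 lower (0.319%), with a median of 0.37 over the 20 and 0.91 over the 14.

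Receptors and signalling partners included 3 of 25 lower in Gel than in Sham (1.80% of all targets), the TGF-beta genes Tgfbr1 (-1.03, limma adjusted p = 1.8e-05) and Tgfb2 (-1.07, adjusted p = 0.0269) and the matricellular gene Ccn4 (-0.71, adjusted p = 0.0122), and 0 higher (0.618%). Tgfb2 was above background in 3 areas. In CuNZ@Gel, 1 of 25 was higher than in Sham (Ccn2, 1.26, adjusted p = 0.00229), as were 0.324% of all targets, and 3 were higher than in Gel (Ccn2, Tgfbr1, Ccn4), as were 0.623%, with 0 lower in either (0.988% and 0.319%). The biglycan receptor genes Tlr2 and Tlr4 were above background in 0 and 4 areas. Of 16 proteases that process or cleave SLRPs, 4 were lower in Gel than in Sham (1.80% of all targets) and 0 higher (0.618%): Mmp14 (648 against 1245, -1.02, adjusted p = 8e-06), Mmp2 (525 against 1081, -1.04, adjusted p = 8.4e-06), the procollagen and probiglycan protease Bmp1 (248.6 against 389, -0.68, adjusted p = 0.0137) and its enhancer Pcolce (213 against 370, -0.84, adjusted p = 0.00111). Bmp1 (-0.76) and Mmp2 (-0.71) were also lower in CuNZ@Gel than in Sham, 2 of 16 (0.988% of all targets) with 0 higher (0.324%), and 0 of 16 were higher (0.623%) or lower (0.319%) in CuNZ@Gel than in Gel.

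Of 23 chondroitin and dermatan sulfate genes, whose enzymes build the sugar chains, 0 were lower (1.80% of all targets) or higher (0.618%) in Gel than in Sham, with a median of -0.22 over the 23 and -0.32 over the 16 above background. Chpf2, a chondroitin polymerising factor, averaged 34.3 in Gel against 54.3 in Sham (-0.63, limma adjusted p = 0.0653). Chst13, a chondroitin 4-sulfotransferase, was the 1 gene higher in CuNZ@Gel, at 19.1 against 7.15 in Gel (1.29, limma adjusted p = 0.00082) and 8.44 in Sham (1.14, adjusted p = 0.00655), with 0 lower (0.623% and 0.324% of all targets were higher). It was above background in 6 areas. Of 7 keratan sulfate genes 0 passed in any treatment comparison. Of 9 other SLRP genes 8 were tested, 1 of them above background (Tsku, 27.9 in Gel, 44.8 in CuNZ@Gel and 43.8 in Sham), and 0 passed. Other proteoglycan core proteins gave 4 of 20 lower in Gel than in Sham (1.80% of all targets), led by the glypican gene Gpc1 (24.04 against 166, -2.85, adjusted p = 4.9e-27), and 1 higher (0.618%), Prg4 (195 against 24.4, 2.85, adjusted p = 2.2e-24). CuNZ@Gel had 2 of 20 lower than Sham (Gpc1, Gpc4; 0.988% of all targets) and 0 higher (0.324%). Against Gel it had 2 higher (Gpc1, Gpc6; 0.623%) and 1 lower (Prg4; 0.319%).

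Between segments, 4 of 20 collagens and partners (Col6a1, Col6a3, Fn1, Col5a1), 4 of 25 receptors and partners, 3 of 16 proteases, 3 of 20 other proteoglycans and 1 of 7 keratan sulfate genes were lower in Segment 2 (2.14% of all targets), with 0 higher in each list (0.390%). The collagens and partners had a median of -0.39 over the 14 above background, against -0.197 over all targets above background, and of -0.32 over the 20, against -0.009 over all targets tested.

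The summed level of 12 fibroblast markers was 245 to 671 per area in Gel (median 484), 589 to 852 in CuNZ@Gel (median 768) and 809 to 1264 in Sham (median 928), and 7 of the 12 were above background. Of the 12, 2 were lower in Gel than in Sham (Mfap5 and Fap), as were 1.80% of all targets, and 0 higher (0.618%). In CuNZ@Gel 1 was lower than in Sham (Fap, 0.988% of all targets) and 0 higher (0.324%). Against Gel, 1 was higher in CuNZ@Gel (Mfap5, 0.623%) and 0 lower (0.319%). The sum of 9 smooth muscle and pericyte markers was 139 to 644 in Gel (median 260), 380 to 937 in CuNZ@Gel (median 664) and 662 to 1226 in Sham (median 952), with 5 of 9 above background. Of the 9, 1 was lower in Gel than in Sham (Tagln), as were 1.80% of all targets. Mcam was the 1 higher (159.1 against 95.7, limma adjusted p = 0.0383), as were 0.618%. In CuNZ@Gel 0 were higher (0.324%) or lower (0.988%) than in Sham. Against Gel, 1 was higher in CuNZ@Gel (Tagln, 0.623%) and 0 lower (0.319%). In CuNZ@Gel and Sham much of this sum is Acta2, while in Gel Mcam had the highest mean of the 9 (159.1). Acta2 averaged 72.7 in Gel against 581.6 in Sham and did not pass (limma adjusted p = 0.316), while Cspg4 averaged 16.2 against 12.4. The medians of both sums were lowest in Gel, as were those of Bgn and Lum, and their part in those results was not tested. In tissue areas, fewer cells of a type and less RNA per cell cannot be told apart. The sum of 12 macrophage markers had medians of 951 in Gel, 859 in CuNZ@Gel and 997 in Sham, but single markers differed. C1qb averaged 136.81 in Gel, 5.02 in CuNZ@Gel and 57.3 in Sham. The other C1q subunit genes, above background in 24 areas, did not share its low CuNZ@Gel level. In the same order C1qa averaged 52.2, 49.2 and 49.1, and C1qc 214, 192 and 156. C1qb was the 1 of 12 higher in Gel than in Sham (0.618% of all targets), with 0 lower (1.80%). In CuNZ@Gel 1 was higher than in Sham (Lyz2, 0.324%) and 2 lower (Mrc1 and C1qb, 0.988%). Against Gel, 2 were lower in CuNZ@Gel (Mrc1 and C1qb, 0.319%) and 0 higher (0.623%). The sum of 6 adipocyte markers, mostly Fabp4, had medians of 237 in Gel, 144 in CuNZ@Gel and 78.1 in Sham. In that list 1 of 6 was above background, and the part of this sum in the Prelp values was not tested. None of 9 keratinocyte markers, and 1 of 11 markers of tendon, cartilage and bone (Runx2), was above background, so that the labelled tissue, skin, was represented here without its epidermal markers.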

How the data were processed

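Each of the 24 deposited files gives a signal for 19963 targets, 1 of them a negative probe. No description of the authors' counting, filtering or scaling was available. The 75th percentile of the values was 12.26 in every area but region mac2, Segment 2 of Gel specimen 1, where it was 12.05. The values therefore look scaled to that percentile. This level lay below the median receptor background limit of 14.3, so the areas were set alike at a level near background. Differences of high targets such as Lum and Bgn depend on that choice. Between 99.98% and 99.995% of the deposited values in an area were whole multiples of the lowest (within 0.01 of a count), so that whole counts could be recovered with the lowest value as 1 count. Depth was 86385 to 1476499 counts per area (median 340370). All 8 members, and 16665 targets in all, bear the symbol of a rat gene.

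A specimen's 4 areas were averaged as log2(signal + 1). A model over 6 specimens (limma 3.58.1, R 4.3.3, with the trend and robust options of eBayes) covered the 19728 targets that exceeded the negative probe in 4 or more areas. The segment model used 12 means and specimen as a block. Median prior degrees of freedom were 133.5 for treatments over both segments, 61.4 in Segment 1, infinite in Segment 2 and 55.8 in the segment model, beside 3 residual ones each. The p-values measure the spread between specimens, which may be technical, and lean on all targets. On recovered counts, summed per specimen, edgeR 4.0.16 called 369 targets for Gel against Sham, 165 for CuNZ@Gel against Sham and 138 for CuNZ@Gel against Gel, and DESeq2 1.42.0 called 164, 64 and 57. The models were also run on simulated data in which all targets had the same set spread, so no call on a member rests on that run. Deviations of equally numbered specimens correlated at -0.025, 0.004 and -0.032, so the numbers did not pair them.

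All 8 members are named, with up to 4 genes of each partner list by smallest p, and for each member above background in 4 or more areas, the 3 targets most like it. Col1a1, Col3a1, Tlr2 and Tlr4 were added after their values were seen. The members and lists were chosen with earlier results of these data known. The RefSeq promoter table held no entry for Dcn, Bgn or Prelp.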

Additional observations from a re-analysis of the deposited data

Results flagged for a closer look

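Among the 4 areas of a treatment and segment, 4 values stood apart, each with a gap to its nearest neighbour that, as a share of the group's range, exceeds Dixon's 95% critical value. Of such groups 30 were examined, and chance marks about 1 in 20. All 4 belonged to CuNZ@Gel. Bgn in specimen 2, region mac2, Segment 1 was 714, below 792 to 802 in the other 3 areas (gap 0.896 of the range). Fmod in specimen 2, region mac1 was 34.0 in Segment 1, below 55.2 to 59.3 (gap 0.871), and 84.5 in Segment 2, above 39.9 to 43.6 (gap 0.881). Prelp in specimen 1, region mac1, Segment 1 was 3.68 with 9 counts, below 5.37 to 5.66 (gap 0.872).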

How the results depend on the processing

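With 2 specimens per treatment, calls moved with the settings. The differences of Lum, Bgn and Prelp kept their sign under all 23 alternatives to Gel against Sham. Those of Bgn and Prelp did so under all 23 to CuNZ@Gel against Gel. Under some alternatives the difference could not change, so its sign was fixed in advance. These were the changes of target filter, limma without trend and robust, the specimen number as a block and areas as samples. Leaving out a specimen of the treatment outside the comparison was another. Only the remaining alternatives could have turned the sign. Causes were not tested. Lum stayed past the threshold under 22 of 23 alternatives between Gel and Sham (adjusted p 1e-19 to 0.116) and under 14 of 23 between CuNZ@Gel and Sham (1.5e-08 to 0.516), Prelp under 15 of 23 (6.9e-05 to 0.569) and, between the gels, 12 of 23 (0.00032 to 0.986), and Bgn between segments under 8 of 17 (1.1e-05 to 0.443). Bgn between Gel and Sham passed under 14 of 23 (5.9e-52 to 0.475). Where a specimen was left out, the spread came from the other treatments' specimens.

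Of the 8 members, 2 were called between Gel and Sham, and 1 was called in region mac2 alone, with thinned counts, with edgeR and with DESeq2. Between CuNZ@Gel and Sham 1 was called, 0 with quantile normalization, without trend and robust, with edgeR and with DESeq2, and 2 in Segment 2 alone. Between CuNZ@Gel and Gel 1 was called, 0 among targets above background, in Segment 1 alone, in region mac2 alone, with thinned counts and with DESeq2, 2 with 24 areas as samples, and 3 in Segment 2 alone and in region mac1 alone. Between segments 1 was called, and 0 with quantile normalization, median centring, without trend and robust, in region mac1 alone and with thinned counts. Leaving out each specimen in turn gave 2 to 4 members between Gel and Sham, 0 to 3 between CuNZ@Gel and Sham, 0 to 5 between CuNZ@Gel and Gel and 0 to 2 between segments. With the specimen number as a replicate block, CuNZ@Gel against Gel called 2 members and Gel against Sham called Bgn (adjusted p = 4.4e-05). The block changed no other call.

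The differences that turned sign, none of which passed in the main fit, were as follows. Leave-one-out ranges are given as sizes only. CuNZ@Gel against Gel gave 0.025 for Dcn in region mac2 and 0.041 for Omd in Segment 1. Its leave-one-out ranges were -0.008 to 0.66 for Lum, -0.12 to 0.42 for Ogn and -0.98 to 0.30 for Omd. CuNZ@Gel against Sham gave -0.13 for Aspn and -0.48 for Prelp in region mac2, -0.34 and -0.60 with edgeR, -0.31 and -0.53 with DESeq2, -0.039 for Dcn, 0.21 for Omd and -0.15 for Prelp in Segment 1, -0.94 for Dcn and 0.81 for Omd with thinned counts, 0.037 for Omd with median centring and -0.05 for Prelp with quantile normalization, with leave-one-out ranges of -0.63 to 1.59 for Aspn, -0.39 to 0.16 for Omd and -0.20 to 0.35 for Prelp. Gel against Sham gave -0.004 for Dcn in region mac2, 0.14 for Fmod and -0.053 for Ogn in region mac1, -0.011 for Dcn and 0.36 for Fmod with thinned counts, with leave-one-out ranges of -1.20 to 0.76 for Fmod and -0.41 to 0.86 for Omd. Segment 2 against Segment 1 gave 0.03 for Aspn and 0.042 for Lum with quantile normalization, 0.06 for Aspn and 0.024 for Dcn with median centring, 0.024 for Aspn, 0.059 for Dcn and 0.30 for Prelp in region mac1, 0.033 for Ogn in region mac2, and 0.083 for Dcn, 0.093 for Fmod, 0.29 for Ogn and 0.034 for Omd with thinned counts, with leave-one-out ranges of -0.38 to 0.14 for Dcn and -0.54 to 0.04 for Prelp.

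Over all targets, Gel against Sham called 122 higher and 356 lower, or 192 and 206 with quantile normalization and 227 and 253 with median centring. CuNZ@Gel against Sham called 64 and 195, or 80 and 80 and 112 and 105. Segment 2 against Segment 1 called 77 and 422, or 33 and 112 with quantile normalization, 240 and 134 with median centring, 1 and 684 among targets above background and 0 in all without trend and robust, where 3193 had an unadjusted p under 0.05 with them. Limma without trend and robust called 176, 44 and 75 targets in the treatment comparisons (Gel and CuNZ@Gel against Sham, CuNZ@Gel against Gel), against 478, 259 and 186. Thinned counts called 228, 87 and 102, region mac1 alone 180, 97 and 112, Segment 2 alone 308, 116 and 119, and DESeq2 164, 64 and 57. The 24 areas as samples, although areas of 1 specimen are not replicates, called 771, 517 and 252. Leaving out a specimen gave 271 to 752, 72 to 458 and 95 to 293 targets, and 169 to 709 between segments, where thinned counts called 89 and regions mac1 and mac2 alone 185 and 193. Dcn, Omd, Ogn and Prelp had the lowest counts, with the fewest in Segment 2.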

Other observations

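Of the 4 members read in at least 15 areas, Aspn and Fmod showed the widest spread between the 2 Sham specimens, 12.8 and 73.5 for Aspn and 11.1 and 53.0 for Fmod, while Bgn (1002 and 1026) and Lum (2101 and 2162) lay close together in the same specimens. Col11a1, the target most like Aspn, averaged 36.3 and 102.7 in Sham specimens 1 and 2, after 9.61 and 16.2 in Gel and 47.8 and 61.9 in CuNZ@Gel. These values were not tested.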
